A study of Arabidopsis thaliana with 7 samples.

Results

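A set of 39 genes of the 27655 in the table had moderate transcript levels in wild-type Arabidopsis seedlings and no more than 0.5 of that level in glk1 glk2 double mutants. Levels are in TPM, the abundance of a transcript per length, scaled to 1 fixed total per library. A gene was taken when its WT mean lay between 5 and 100 TPM, its mutant mean was at most 0.5 of the WT mean, and its highest mutant value was below its lowest WT value. In all, 59 of the 12683 genes in that WT range met these thresholds, and 20 of them were left out by name, which gave the 39. Of those 20, BBX14, BBX16 and CYP79F1 are named further on as relatives. The genes were thus chosen by their TPM values in both groups, and the differences between the groups given for them are descriptions with no test.

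The RNA came from 12-day-old Col-0 seedlings that had been grown on 1/2 strength MS medium at 16 °C in long days and sampled at ZT4, that is 4 h after lights on. Libraries had been made from glk1 glk2 double mutants (4 libraries) and from WT plants (3 libraries). The labels name no alleles, and the mutations are carried by the whole plant. In bulk seedling RNA, fewer cells of a type and less RNA per cell cannot be told apart. Nothing in the labels says that libraries of a group came from separate plantings, so the spread between them may be technical.

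GLK1 and GLK2 (GOLDEN2-LIKE) are transcription factors of the GARP family that promote chloroplast development, and they act on genes for light-harvesting proteins and chlorophyll synthesis. Plants that lack both are pale green. The 39 genes lie mostly outside that core, and the choice itself favoured this. The limit of 100 TPM in WT left out abundant core genes that were lower in glk1 glk2. Examples are LHCB6 (1482 TPM in glk1 glk2 and 5296 TPM in WT) and HEMA1 (151 TPM in glk1 glk2 and 368 TPM in WT). PORA, of chlorophyll synthesis, was among the 20 genes left out by name. They include transcription factors, auxin and ethylene signalling genes, cytochrome P450 enzymes, genes around methionine and its derived glucosinolates (the sulfur-containing defence compounds of the cabbage order), phosphatases and lipid proteins, cell wall proteins, and 8 genes annotated only as uncharacterized proteins.

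The WT-1 column stands apart. In 5606 rows of the table its values were in another order than the gene identifiers, and they were read in alphabetical order, in which the correlation across genes of WT-1 with the mean of all other libraries was 0.995, against 0.055 as deposited. Of the 39 genes, 8 lie in those rows (CYP81D11, AT3G16120, AT5G59080, AT3G23080, HMT3, AT1G15825, ETP1 and AT3G19480), and their WT-1 values rest on this reading. With WT-1 left out in those rows, all 39 genes still met the thresholds, among 41 that did. With WT-1 as deposited, 34 of the 39 met them, among 55.

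Both targeted transcripts were low in every mutant library but not at 0. GLK1 (AT2G20570, GPRI1 in RefSeq) lay between 49.7 and 56.0 TPM in glk1 glk2, against 183 to 203 TPM in WT. GLK2 (AT5G44190) lay between 46.0 and 54.4 TPM in glk1 glk2, against 155 to 161 TPM in WT. The libraries listed 22580 to 22693 genes above 0, and read depth is not kept in TPM. Markers of other organs and cell types moved between libraries. The summed level of 3 seed markers ranged from 0.880 to 235 TPM in glk1 glk2 and from 1.47 to 74.0 TPM in WT. The sum of 6 root markers ranged from 1810 to 3024 TPM in glk1 glk2 and from 1687 to 2122 TPM in WT. PYK10 made up most of that sum, with 1713 to 2887 TPM in glk1 glk2 and 1631 to 2044 TPM in WT. The sum of 3 green leaf markers ranged from 30620 to 34414 TPM in glk1 glk2 and from 29237 to 32255 TPM in WT, and the 3 flower markers AP1, AG and AP3 were under 1 TPM in every library. With limma, 0 of 29 tested markers were called in both scalings described below. In TPM 10 were called, all higher in glk1 glk2, and after TMM scaling 1 was, a green leaf marker that was lower. At an unadjusted limma p under 0.05 there were 11 markers in TPM, all higher, and 3 markers after TMM scaling. Their part in the results for the 39 genes was not tested.

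The upstream sequences of the genes are shown first, for the G-box, which 5 of them hold, and for the GLK-associated CCAATC, which 3 hold. The share with CCAATC was 7.69%, against 10.2% of protein-coding nuclear genes. Sequences are from RefSeq (TAIR10.1), read 5′ to 3′ on the strand of the gene, and end at the base before the annotated start of the gene. Each is 250 bases long, or reaches only to the next annotated gene. The G-box, CACGTG, is the core bound by many bZIP and bHLH factors, and it is a palindrome. It stood in 5 of the 39 windows of 250 bases (12.8%), against 6.49% of all 27443 windows of protein-coding nuclear genes. Over the 19042 of these whose genes had at least 1 TPM in at least 3 libraries, the share was 7.47%. Capitals mark it. The genes are CYP81D11 (chr3:10790554-10790803, minus strand), MBP1 (chr1:19352792-19353041, minus strand), AT2G15960 (chr2:6946880-6947095, plus strand), AT1G73120 (chr1:27498063-27498312, minus strand) and PSBP-2 (chr2:13120200-13120291, minus strand).
CYP81D11: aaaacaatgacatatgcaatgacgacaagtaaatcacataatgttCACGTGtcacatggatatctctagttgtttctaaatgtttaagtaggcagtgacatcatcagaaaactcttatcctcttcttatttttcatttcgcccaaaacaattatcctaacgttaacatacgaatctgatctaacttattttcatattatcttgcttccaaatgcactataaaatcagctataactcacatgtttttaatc
MBP1: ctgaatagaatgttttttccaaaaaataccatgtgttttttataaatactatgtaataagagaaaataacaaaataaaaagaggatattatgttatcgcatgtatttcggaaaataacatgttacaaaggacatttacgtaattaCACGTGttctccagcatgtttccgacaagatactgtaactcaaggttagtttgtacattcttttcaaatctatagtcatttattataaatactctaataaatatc
AT2G15960: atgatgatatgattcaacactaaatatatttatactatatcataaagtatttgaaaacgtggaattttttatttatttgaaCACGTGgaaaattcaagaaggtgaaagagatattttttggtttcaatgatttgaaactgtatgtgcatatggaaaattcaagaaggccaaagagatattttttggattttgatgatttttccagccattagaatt
AT1G73120: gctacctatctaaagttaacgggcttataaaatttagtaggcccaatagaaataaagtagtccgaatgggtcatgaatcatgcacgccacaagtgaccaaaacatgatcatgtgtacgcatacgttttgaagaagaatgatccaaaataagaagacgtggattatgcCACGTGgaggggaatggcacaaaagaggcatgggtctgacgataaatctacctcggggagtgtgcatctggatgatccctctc
PSBP-2: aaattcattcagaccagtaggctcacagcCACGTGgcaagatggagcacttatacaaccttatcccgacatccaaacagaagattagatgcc
Counted from −1 at the base before the annotated start, the first base of the G-box stood at −205 in CYP81D11, −105 in MBP1, −135 in AT2G15960, −83 in AT1G73120 and −63 in PSBP-2.

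CCAATC is a motif reported from promoters of genes that respond to GLK factors in Arabidopsis. Searched on both strands, it stood in 3 of the 39 windows (7.69%), against 10.2% of all windows. Its reverse complement is GATTGG, and capitals mark either form. The genes are GDPD6 (chr5:2576820-2577005, minus strand), EXPB1 (chr2:8940583-8940832, plus strand) and CYP709B3 (chr4:13827939-13828188, plus strand).
GDPD6: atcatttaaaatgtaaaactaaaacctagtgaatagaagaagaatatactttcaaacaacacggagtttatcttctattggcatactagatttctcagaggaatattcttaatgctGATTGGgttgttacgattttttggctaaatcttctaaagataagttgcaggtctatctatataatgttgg
EXPB1: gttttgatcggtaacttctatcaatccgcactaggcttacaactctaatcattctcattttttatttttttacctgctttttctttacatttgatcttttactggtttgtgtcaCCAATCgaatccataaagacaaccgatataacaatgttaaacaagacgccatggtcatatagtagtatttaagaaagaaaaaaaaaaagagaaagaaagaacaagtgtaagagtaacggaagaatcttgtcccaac
CYP709B3: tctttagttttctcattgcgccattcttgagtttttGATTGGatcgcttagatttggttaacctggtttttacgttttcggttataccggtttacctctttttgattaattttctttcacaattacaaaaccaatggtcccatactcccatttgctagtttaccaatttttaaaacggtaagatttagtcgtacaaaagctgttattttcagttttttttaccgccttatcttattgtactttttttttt
AGATTC, a core of sites bound by GARP proteins, was found in 5 windows (12.8%), those of CYP81D11, AT5G56100, ETP1, ROPGEF11 and EXPB1, against 16.4% of all windows. GATAA, the core of the I-box of light-regulated promoters, stood in 28 windows (71.8%), against 54.9% of all. ACACNNG, which overlaps CACGTG wherever the G-box has A before it or T after it, stood in 13 windows (33.3%), against 23.1%. The TATA element TATAAA stood in 20 windows (51.3%), against 47.3%. Over the 19042 windows of genes with at least 1 TPM in at least 3 libraries, CCAATC had 10.4%, AGATTC 16.2% and GATAA 55.5%. There ACACNNG had 23.5% and TATAAA 46.2%. These shares are descriptions of letters in a window and were not tested.

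One upstream stretch lies between a pair of the 39 genes. MRU1 and the uncharacterized AT5G35480 point away from each other with 220 bases between their annotated starts (chr5:13689597-13689816). It is shown on the plus strand, the strand of MRU1, with GATAA and its reverse complement TTATC in capitals at 5 places.
MRU1: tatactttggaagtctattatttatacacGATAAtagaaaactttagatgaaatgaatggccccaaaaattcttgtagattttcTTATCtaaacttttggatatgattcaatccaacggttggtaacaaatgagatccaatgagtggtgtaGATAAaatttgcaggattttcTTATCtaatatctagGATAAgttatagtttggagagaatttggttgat
The levels of both genes are given with the methionine-related genes.

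All 39 genes were tested in a limma fit over 19127 genes, and all 39 were called lower in glk1 glk2 in TPM, where the background of such calls is 2.56%. All were also called lower after scaling with trimmed mean of M values (TMM) factors, with a background of 4.96%, and hence in both scalings, with a background of 2.53%. Mutant values below all WT values, which the choice of genes required, occurred in 2.54% of tested genes. Because the same contrast chose the genes, nothing is read from these counts. The scaling matters for genes outside the set, since TPM columns share a fixed sum. The median log2 difference, glk1 glk2 minus WT, over all tested genes was 0.33 in TPM and 0.01 after TMM scaling. In TPM 63.0% of genes were called higher, and after TMM scaling 3.2%. For the 39 genes the median was −1.27 in TPM and −1.56 after TMM scaling, both on the scale of log2(value + 1). For other genes, rose and fell are written only where limma called the same direction in both scalings (adjusted p under 0.05).

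The size of the difference varied widely among the 39. Mutant means lay at 3.95% to 49.96% of WT means, with a median of 34.4%, whereas the median over all 12683 genes of the same WT range was 130%. Of the 39, 11 were under 25% of WT, 14 from 25% to under 40%, and 14 from 40% to 50%. In 20 genes the lowest WT library was more than 2 times the highest mutant library. WT means were under 10 TPM for 14 genes, from 10 to under 30 TPM for 16, and 30 TPM or more for 9. The 39 genes together held 0.0232% to 0.0262% of the TPM total of the glk1 glk2 libraries, against 0.0730% to 0.0769% of that of the WT libraries.

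**Figure D1:**
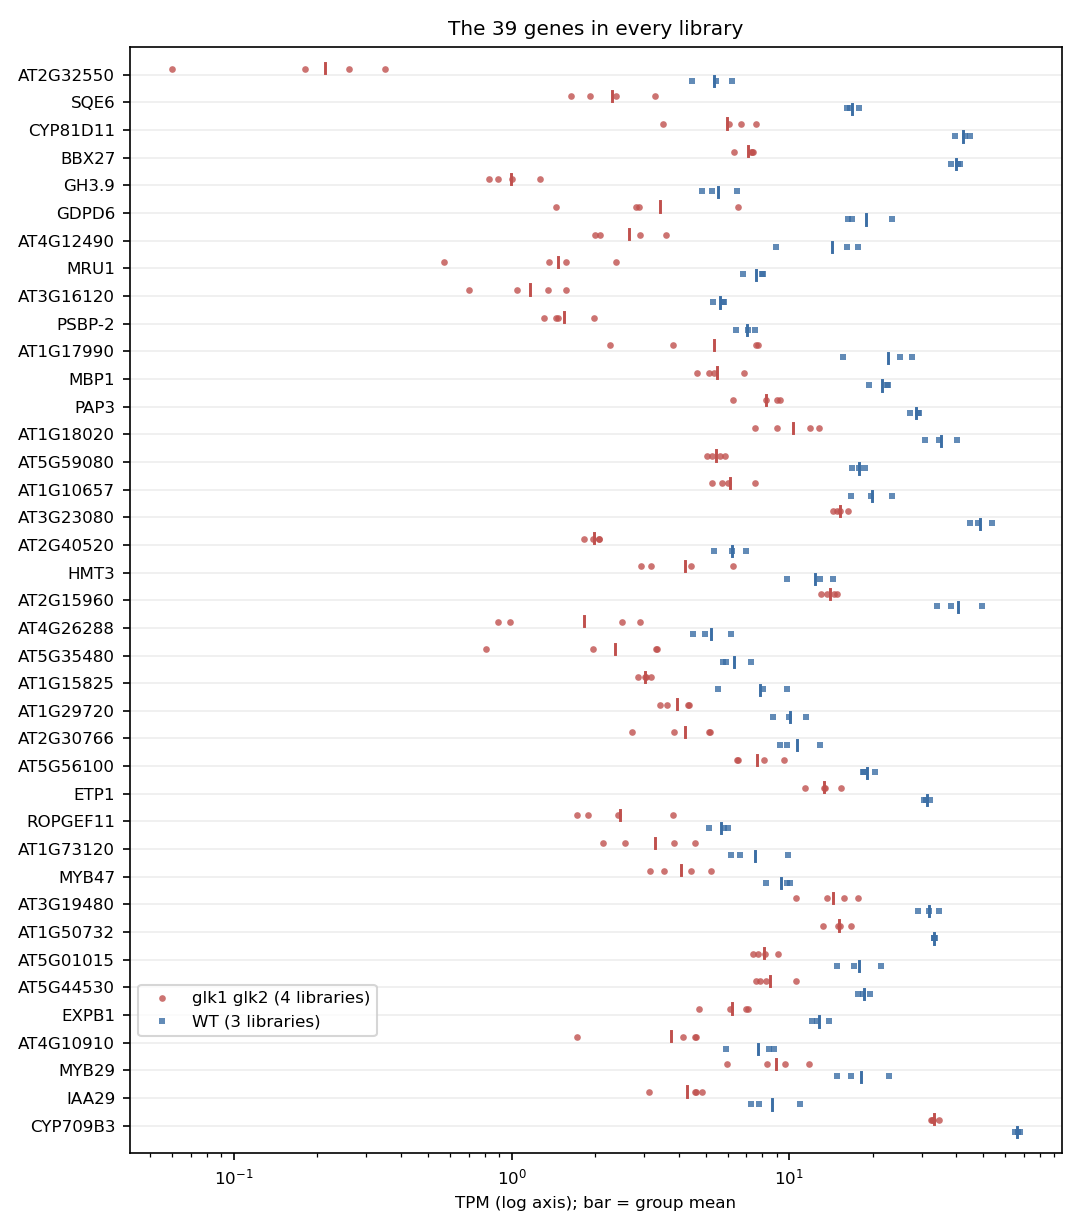
TPM of each of the 39 genes (rows, from the lowest to the highest percentage of WT) in the 4 glk1 glk2 libraries (circles) and the 3 WT libraries (squares), on a log axis, with a bar at each group mean. The groups do not overlap in any row, as the choice of genes required, and the gap is widest for AT2G32550, whose mutant mean was 3.95% of the WT mean.

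**Figure D2:**
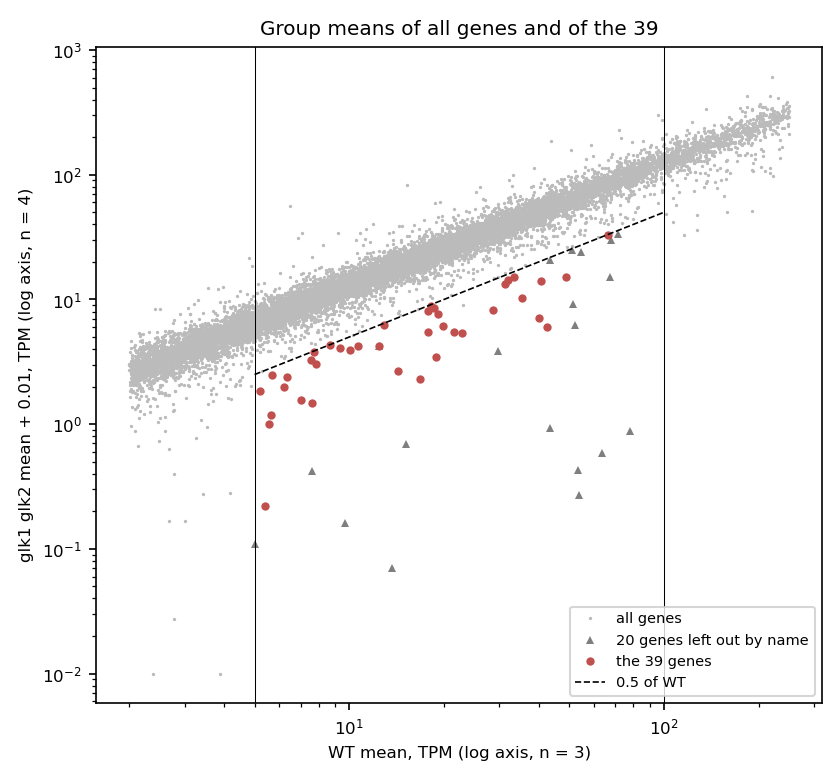
Mean TPM in glk1 glk2 (n = 4, plus 0.01, vertical log axis) against mean TPM in WT (n = 3, horizontal log axis) for genes with a WT mean of 2 to 250 TPM, with the 39 genes and the 20 genes left out by name marked. The vertical lines mark 5 and 100 TPM, the dashed line marks 0.5 of the WT mean, and most grey points have a higher mean in glk1 glk2 than in WT.

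The transcription regulators were BBX27, MYB29 and MYB47. BBX27 (AT1G68190, chromosome 1, 25558794 to 25561248) encodes a B-box zinc finger protein, a family with many members in light signalling and flowering. It had 7.40, 7.34, 7.26 and 6.35 TPM in the glk1 glk2 libraries, against 38.2, 40.4 and 41.3 TPM in WT. Its mutant mean of 7.09 ± 0.495 TPM (SD, n = 4) was 17.7% of the WT mean of 40 ± 1.58 TPM (SD, n = 3), and both groups were tight. Of 25 other tested B-box genes 7 fell (28%, with a background of 2.53%) and 2 rose (8%, with a background of 3.2%), and 3 of the 7 are among the 20 left out by name. Their falls are thus part of the same choice by value. The largest falls were those of BBX16, at 15.1 ± 2.88 TPM in glk1 glk2 and 67.2 ± 2.73 TPM in WT, and BBX14, at 24.2 ± 2.67 TPM in glk1 glk2 and 54.4 ± 1.502 TPM in WT. BBX18 rose, with 79.1 ± 2.88 TPM in glk1 glk2 and 40.3 ± 2.36 TPM in WT, as did LZF1 (BBX22), with 61.6 ± 8.35 TPM in glk1 glk2 and 32.5 ± 0.401 TPM in WT.

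MYB29 (AT5G07690), an activator of genes for methionine-derived glucosinolates, had 11.8, 5.95, 8.29 and 9.66 TPM in glk1 glk2, against 14.9, 16.7 and 23.0 TPM in WT. The nearest values of the groups, 11.8 and 14.9 TPM, were only 1.26-fold apart. Its neighbour MYB76, which lies 1442 bases from it on the same strand and has a related role, fell, with 0.722 ± 0.449 TPM in glk1 glk2 and 2.49 ± 0.650 TPM in WT. MYB28, the main activator of the same pathway, had 64.7 TPM in glk1 glk2 and 62.6 TPM in WT and was not called in both scalings. Of 4 other tested MYB genes of the glucosinolate group, 1 was called lower in TPM and 3 after TMM scaling. MYB47 (AT1G18710), a MYB factor of the R2R3 type, had 3.54, 3.14, 4.41 and 5.22 TPM in glk1 glk2, against 10.04, 8.24 and 9.82 TPM in WT, so the mutant mean was 43.5% of WT. Among 999 tested genes whose products name transcription regulators, without these 3, 20 fell and 23 rose, where the backgrounds are 2.53% and 3.2%. Of those that fell, 2 are among the genes left out by name. The largest change in that list outside the B-box genes was that of AT5G10570, a bHLH gene by its product, at 0.757 ± 0.272 TPM in glk1 glk2 and 3.25 ± 0.583 TPM in WT.

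Of the hormone genes, GH3.9 (AT2G47750, chromosome 2, 19560127 to 19563960) was the lowest relative to WT. GH3 enzymes join auxin or other acids to amino acids. It had 1.00, 0.830, 1.27 and 0.890 TPM in glk1 glk2, against 4.86, 5.27 and 6.5 TPM in WT, a mutant mean of 18.0% of WT. Of 6 other tested GH3 genes none fell, and PBS3, which acts in salicylic acid synthesis, rose, with 2.68 ± 0.403 TPM in glk1 glk2 and 1.14 ± 0.204 TPM in WT. Of the 6, 1 was called lower after TMM scaling alone. IAA29 (AT4G32280), a light-regulated member of the Aux/IAA repressors of auxin response, had 4.63, 4.58, 4.87 and 3.12 TPM in glk1 glk2, against 10.9, 7.28 and 7.77 TPM in WT. At 49.7% of WT it stood just inside the limit, and its WT libraries differed more than its first 3 mutant libraries did. None of 22 other tested Aux/IAA genes was called in both scalings by limma (11 higher in TPM and 1 lower after TMM scaling). ETP1 (AT3G18980), an F-box protein that targets the ethylene signalling protein EIN2 for degradation, had 13.5, 13.4, 15.3 and 11.4 TPM in glk1 glk2, against 31.2, 30.6 and 32.0 TPM in WT. Its partner ETP2 had 6.58 TPM in glk1 glk2 and 5.44 TPM in WT and was not called in both scalings. In the list of auxin and SAUR products, 5 of 141 other tested genes fell (3.55%) and 2 rose (1.42%), where the backgrounds are 2.53% and 3.2%.

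The oxidation and specialised metabolism genes had WT means of 16.8 to 66.3 TPM. CYP81D11 (AT3G28740, chromosome 3, 10788698 to 10790553), a cytochrome P450 known to be induced by xenobiotics, had 6.08, 6.73, 7.58 and 3.52 TPM in glk1 glk2, against 43.0, 44.7 and 39.4 TPM in WT. The mutant mean was 14.1% of WT, and its upstream G-box is shown above. None of 11 other tested CYP81 genes was called in both scalings (5 higher in TPM and 1 lower after TMM scaling), and their log2 differences after TMM scaling ran from −0.46 to 0.14, against −3.01 for CYP81D11. SQE6 (AT5G24160, chromosome 5, 8182917 to 8186704) is annotated as a squalene monooxygenase, an enzyme class that opens the path from squalene to sterols. It had 2.38, 1.92, 3.28 and 1.64 TPM in glk1 glk2, against 16.6, 17.8 and 16.1 TPM in WT, a mutant mean of 13.7% of WT. None of its 5 tested relatives fell. SQP1 (AT5G24150) rose, with 119.6 ± 13.4 TPM in glk1 glk2 and 72.6 ± 2.10 TPM in WT.

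CYP709B3 (AT4G27710, chromosome 4, 13828189 to 13830682), another cytochrome P450, had the highest level of the 39. It had 32.9, 34.7, 32.3 and 32.7 TPM in glk1 glk2, against 65.0, 66.5 and 67.6 TPM in WT, with little spread in either group. Its mutant mean of 49.96% of WT was the last to pass the limit. AT4G27700, a gene with a rhodanese-like product that lies 260 bases away on the other strand, fell, with 197 ± 14.8 TPM in glk1 glk2 and 325 ± 17.7 TPM in WT. Among 154 other tested cytochrome P450 genes 11 fell (7.14%) and 7 rose (4.55%), where the backgrounds are 2.53% and 3.2%. CYP79F1, which starts methionine-derived glucosinolate synthesis and is 1 of the 20 genes left out by name, was among those that fell, with 30.1 ± 9.54 TPM in glk1 glk2 and 67.8 ± 9.80 TPM in WT.

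AT1G17990 and AT1G18020 encode FMN-linked oxidoreductases and are near-identical copies in opposite orientation, 8141 bases apart on chromosome 1 (6192033 to 6194093 and 6202235 to 6204234). They share 1220 stretches of 50 bases, so only 22.2% of those of AT1G17990 and 16.4% of those of AT1G18020 were in no other transcript, and how reads were divided between them is uncertain. AT1G17990 had 7.75, 3.80, 7.56 and 2.26 TPM in glk1 glk2, against 15.7, 27.6 and 25 TPM in WT. AT1G18020 had 7.50, 12.8, 11.9 and 9.02 TPM in glk1 glk2, against 40.3, 30.9 and 34.7 TPM in WT. WT-1 was the lowest WT library for the first and the highest for the second. Their sum was 15.2, 16.6, 19.5 and 11.3 TPM in glk1 glk2, against 56.0, 58.5 and 59.7 TPM in WT, so the sum was steadier in WT than either gene, and its mutant mean was 27.0% of WT. Upstream of the genes the likeness ended, with 25.6% identical positions in the 250 bases before each. Of 5 other tested FMN-linked oxidoreductases none fell, and AT4G38890 rose, with 23.9 ± 1.74 TPM in glk1 glk2 and 14.4 ± 1.13 TPM in WT.

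The genes around sulfur amino acids and glucosinolates were MRU1, MBP1, HMT3 and AT3G19480. MRU1 (AT5G35490, chromosome 5, 13689817 to 13690548) is named for its higher level in mto1, an Arabidopsis mutant that accumulates methionine. It had 1.36, 1.57, 2.38 and 0.570 TPM in glk1 glk2, against 6.80, 8.03 and 7.97 TPM in WT, a mutant mean of 19.3% of WT. The divergent AT5G35480 had a mean of 2.36 ± 1.22 TPM in glk1 glk2 and 6.34 ± 0.841 TPM in WT. The order of the mutant libraries differed between these neighbours, since mutant library 3 was the highest for MRU1 at 2.38 TPM and the lowest for AT5G35480 at 0.810 TPM. MBP1 (AT1G52040, chromosome 1, 19350314 to 19352791) encodes a protein that binds myrosinase, the enzyme that breaks down glucosinolates. It had 5.36, 4.66, 5.15 and 6.85 TPM in glk1 glk2, against 22.5, 19.4 and 22.8 TPM in WT, a mutant mean of 25.5% of WT. The adjacent MBP2, with which it shares 33 stretches of 50 bases, had 2.37 TPM in glk1 glk2 and 2.62 TPM in WT and was not called in both scalings.

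HMT3 (AT3G22740), which makes methionine from homocysteine with S-methylmethionine as methyl donor, had 6.28, 2.92, 4.44 and 3.19 TPM in glk1 glk2, against 9.84, 13.0 and 14.4 TPM in WT. The groups were separate, and the coefficient of variation was 36.4% in glk1 glk2 and 18.8% in WT. AT3G19480 (PGDH3 among its RefSeq synonyms), a D-3-phosphoglycerate dehydrogenase of the first step of serine synthesis in plastids, had 15.7, 13.7, 10.6 and 17.7 TPM in glk1 glk2, against 29.1, 31.8 and 34.7 TPM in WT. Neither of its 2 tested relatives was called in both scalings, but both were called higher in TPM. PGDH had 40.9, 40.5, 78.0 and 44.4 TPM in glk1 glk2, against 29.3, 26.9 and 24.3 TPM in WT, so mutant library 3 stood far above the others. EDA9 had 107 TPM in glk1 glk2 and 72.0 TPM in WT.

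Among the phosphate and lipid genes, GDPD6 (AT5G08030, chromosome 5, 2575025 to 2576819) encodes an enzyme of the class that cleaves glycerophosphodiesters. It had 2.88, 2.81, 6.52 and 1.45 TPM in glk1 glk2, against 23.5, 16.3 and 16.8 TPM in WT. One library of each group stood above its group, and the mutant mean was 18.1% of WT. None of 4 other tested genes of this enzyme class was called in both scalings (2 higher in TPM). AT5G08050, which lies 1391 bases away, fell, with 199 ± 14.4 TPM in glk1 glk2 and 258 ± 10.5 TPM in WT. PAP3 (AT1G14700), a purple acid phosphatase, a class of secreted or vacuolar enzymes that release phosphate, had 9.04, 8.25, 9.30 and 6.27 TPM in glk1 glk2, against 27.1, 29.1 and 29.3 TPM in WT. Of 21 other tested purple acid phosphatases 2 fell, namely PAP8, with 13.4 ± 3.55 TPM in glk1 glk2 and 19.5 ± 1.33 TPM in WT, and PAP16, with 3.08 ± 0.987 TPM in glk1 glk2 and 4.74 ± 0.988 TPM in WT.

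AT3G23080, a member of the polyketide cyclase and lipid transport superfamily, had 15.3, 16.2, 14.3 and 14.9 TPM in glk1 glk2, against 44.6, 47.9 and 53.7 TPM in WT, and the mutant libraries were the tighter group. It lies in the rows in which the order of WT-1 was restored, and with WT-1 as deposited its log2 difference was 0.22, in place of −1.62. AT4G12490 (chromosome 4, 7409621 to 7410406), a lipid-transfer-like protein, had 3.60, 2.09, 2.00 and 2.89 TPM in glk1 glk2, against 8.96, 17.6 and 16.2 TPM in WT. WT-1 was low among the WT libraries, yet all mutant values were below it. AT5G56100, annotated as a glycine-rich protein or oleosin, the class that coats lipid droplets in seeds, had 8.09, 9.57, 6.49 and 6.56 TPM in glk1 glk2, against 18.7, 18.4 and 20.3 TPM in WT. The seed marker sums given above, which spread over 0.880 to 235 TPM in glk1 glk2, stand beside this gene, and their part in its level was not tested. COX15, which it overlaps on the same strand, rose, with 9.79 ± 1.03 TPM in glk1 glk2 and 5.03 ± 0.621 TPM in WT. In the list of lipid products, 14 of 590 other tested genes fell and 14 rose (2.37% each), where the backgrounds are 2.53% and 3.2%.

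The cell wall, growth and signalling genes were all between 38.7% and 48.5% of WT. EXPB1 (AT2G20750), a beta-expansin, a protein that loosens cell walls, had 6.12, 4.72, 7.0 and 7.11 TPM in glk1 glk2, against 12.6, 13.9 and 12.1 TPM in WT. EXPB3, the 1 other beta-expansin tested, had 66.7 TPM in glk1 glk2 and 68.1 TPM in WT. It was called lower after TMM scaling, with a log2 difference of −0.39, but not in TPM, with one of −0.03. In the list of cell wall products, 2 of 293 other tested genes fell (0.683%) and 23 rose (7.85%), where the backgrounds are 2.53% and 3.2%. Among those that rose was CWLP, with 1647 ± 389 TPM in glk1 glk2 and 566 ± 72.1 TPM in WT. AT5G44530, a subtilase (a serine protease), had 8.26, 7.56, 10.5 and 7.85 TPM in glk1 glk2, against 17.8, 18.5 and 19.6 TPM in WT. AT1G29720, a leucine-rich repeat transmembrane kinase, had 3.43, 3.62, 4.35 and 4.33 TPM in glk1 glk2, against 8.77, 9.95 and 11.5 TPM in WT. In both genes the groups were more than 4 TPM apart at their nearest libraries.

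AT1G15825, a hydroxyproline-rich glycoprotein, had 3.17, 3.06, 3.02 and 2.85 TPM in glk1 glk2, against 5.55, 8.05 and 9.85 TPM in WT, an even level in the mutant and an uneven one in WT. It overlaps AT1G15830, so that only 28.5% of its 50-base stretches were in no other transcript, and it lies 192 bases from the antenna gene LHCB6 on the same strand. Both of these genes fell, LHCB6 with 1482 ± 218 TPM in glk1 glk2 and 5296 ± 74.4 TPM in WT. ROPGEF11, an exchange factor that activates plant ROP GTPases, had a mean of 2.46 ± 0.958 TPM in glk1 glk2 and 5.66 ± 0.454 TPM in WT. It overlaps the photosystem I subunit gene PSAH2 on the other strand in 125 stretches of 50 bases. PSAH2 had far higher levels and fell, with 2002 ± 183 TPM in glk1 glk2 and 4677 ± 30.9 TPM in WT. The strand setting is not given in the sources used here, so reads of ROPGEF11 and PSAH2, or of AT1G15825 and AT1G15830, cannot be told apart where they overlap. None of 10 other tested RopGEF genes was called in both scalings (2 higher in TPM).

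PSBP-2 (AT2G30790, chromosome 2, 13118937 to 13120199) was the photosystem gene of the set. It is annotated as a second PsbP, a subunit of the oxygen-evolving side of photosystem II. It had 1.31, 1.44, 1.98 and 1.47 TPM in glk1 glk2, against 7.54, 6.41 and 7.10 TPM in WT, a mutant mean of 22.1% of WT. PSBP-1, the abundant copy, had 2616 ± 176 TPM in glk1 glk2 and 4855 ± 102 TPM in WT, and was called lower in TPM and after TMM scaling but not after quantile normalization, where its log2 difference was 0.05 (limma adjusted p = 0.690), against −0.89 in TPM. The copies shared no stretch of 50 bases. Of 65 other tested genes in the list of light-harvesting and photosystem products 44 fell (67.7%, with a background of 2.53%) and 2 rose (3.08%, with a background of 3.2%). After quantile normalization 33 of the 65 were called lower. The largest fall was that of LHB1B1, at 10.4 ± 4.13 TPM in glk1 glk2 and 5155 ± 74.2 TPM in WT.

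**Figure D3:**
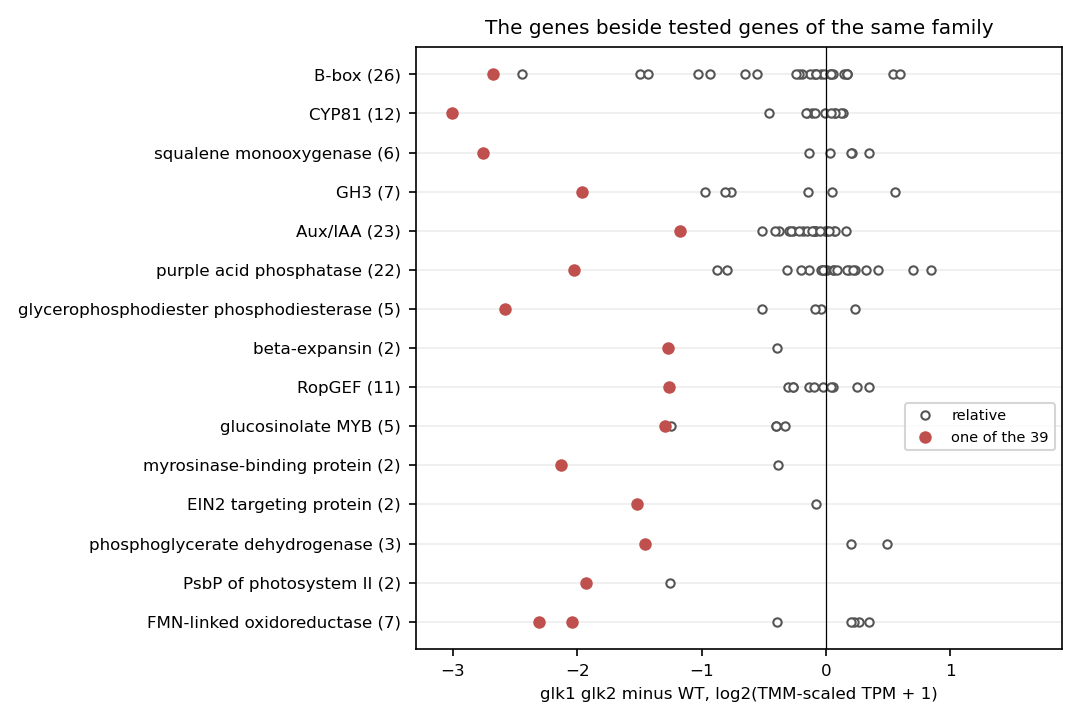
Log2 difference (glk1 glk2 minus WT, TMM-scaled TPM + 1) of members of the 39 (filled) and of other tested genes of the same family (open), with the number of tested genes in brackets. Open points of the CYP81 family lie between −0.46 and 0.14, the squalene monooxygenase SQP1, which rose, lies at 0.35, and B-box relatives reach −2.45.

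In the CYP81, Aux/IAA, glycerophosphodiester phosphodiesterase and RopGEF families, 0 relatives were called in both scalings. There, 0 also had an unadjusted limma p under 0.05 in the same direction in both. Of the 2 tested phosphoglycerate dehydrogenase relatives, also not called in both, 1 was higher in both at that unadjusted level. The remaining named products had no common role. AT2G32550 (chromosome 2, 13819352 to 13822861) belongs to the Rcd1-like family, whose members are subunits of the CCR4-NOT complex of mRNA turnover. It was the lowest of the 39 relative to WT, with 0.06, 0.180, 0.350 and 0.260 TPM in glk1 glk2, against 4.47, 5.46 and 6.20 TPM in WT. Every mutant library was near 0, and the mutant mean was 3.95% of WT. Its neighbour CSLB04, a cellulose synthase-like gene 941 bases away, also fell but far less, with 26.2 ± 1.97 TPM in glk1 glk2 and 34.4 ± 0.469 TPM in WT. AT3G16120 (chromosome 3, 5464728 to 5465585), a dynein light chain type protein, had 1.57, 1.05, 1.35 and 0.700 TPM in glk1 glk2, against 5.33, 5.82 and 5.79 TPM in WT, 20.7% of WT. AT2G15960, annotated as a stress-induced protein, had 14.5, 14.8, 13.0 and 13.6 TPM in glk1 glk2, against 49.5, 38.2 and 34.2 TPM in WT. Here the mutant libraries were even and WT-1 stood above the other two.

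AT2G40520, a nucleotidyltransferase, had 1.82, 2.07, 2.07 and 1.96 TPM in glk1 glk2, against 5.37, 6.22 and 7.0 TPM in WT. AT1G73120, an F-box protein and the last of the genes with a G-box shown above, had 2.57, 3.86, 4.59 and 2.13 TPM in glk1 glk2, against 9.87, 6.64 and 6.16 TPM in WT. The first of these was at 32.0% of WT with little spread in the mutant, and the other at 43.5% with much.

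The 8 uncharacterized genes had mutant means at 30.6% to 48.6% of WT, with a median of 38.4%. AT1G50732 had the highest WT level of them, with 15.2, 16.7, 13.3 and 15.0 TPM in glk1 glk2, against 33.1, 33.3 and 33.4 TPM in WT. AT1G10657 had 5.73, 6.03, 7.51 and 5.28 TPM in glk1 glk2, against 16.7, 19.7 and 23.4 TPM in WT. AT5G01015 had 7.39, 9.08, 8.18 and 7.74 TPM in glk1 glk2, against 14.8, 17.1 and 21.4 TPM in WT. The WT libraries of AT1G50732 had an SD of 0.137 TPM (n = 3), whereas those of the other pair were spread. AT5G59080 had 5.85, 5.61, 5.05 and 5.25 TPM in glk1 glk2, against 18.8, 16.8 and 17.8 TPM in WT. AT4G26288, the gene nearest to the lower WT limit, had 2.49, 2.91, 0.990 and 0.890 TPM in glk1 glk2, against 4.50, 6.19 and 4.96 TPM in WT. Its mutant libraries formed a higher and a lower pair. AT2G30766 was at 39.7% of WT and AT4G10910 at 48.6%. AT4G10910 shares 530 of its 695 stretches of 50 bases with KELP on the other strand, so its value is uncertain in the same way as that of ROPGEF11. Among 1916 other tested genes with products of no known function 62 fell (3.24%) and 44 rose (2.3%), where the backgrounds are 2.53% and 3.2%. Of the 62, 4 are among the 20 genes left out by name, so their falls are part of the same choice by value.

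The genomic surroundings of the 39 were compared with the same fit. Of the 39, 16 overlap another annotated gene, 15 of them on the opposite strand, and 16 share at least 1 stretch of 50 bases with another transcript. In 5 genes fewer than 50% of such stretches were their own (AT1G17990, AT1G18020, AT1G15825, AT4G10910 and AT4G26288). Of 51 tested genes that overlap one of the 39 or lie within 2000 bases, 9 fell (17.6%, with a background of 2.53%) and 2 rose (3.92%, with a background of 3.2%). The 9 lie beside 7 of the 39 and include the overlapping PSAH2 and AT1G15830, the antenna gene LHCB6 and the thylakoid curvature gene AT1G52220, which had 269 ± 23.4 TPM in glk1 glk2 and 401 ± 7.01 TPM in WT. The median log2 difference of the 51 was 0.29 in TPM and −0.01 after TMM scaling, next to 0.33 and 0.01 over all tested genes. The 39 genes lie on all chromosomes, with 12, 7, 6, 5 and 9 on chromosomes 1 to 5.

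**Figure D4:**
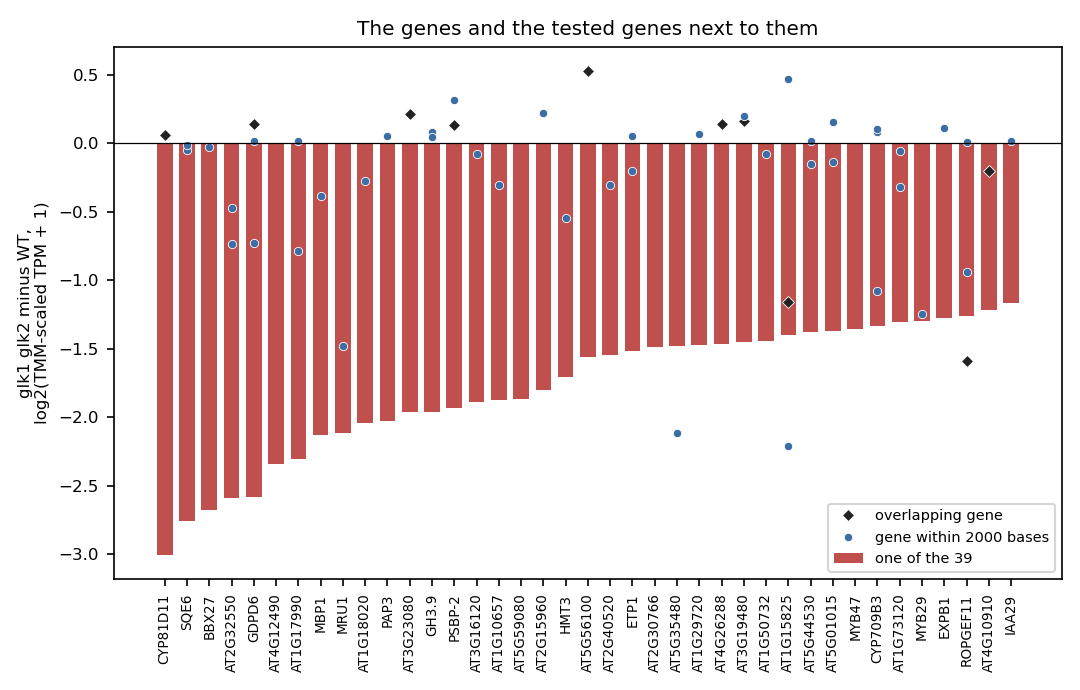
Log2 difference (glk1 glk2 minus WT, TMM-scaled TPM + 1) of the 39 genes (bars) with that of tested genes that overlap them (diamonds) or lie within 2000 bases (circles). Most neighbours lie near 0, with LHCB6 beside AT1G15825 at −2.21 and PSAH2 over ROPGEF11 at −1.59.

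The spread between libraries, relative to the mean, was larger for the 39 than over all 12683 genes of their WT range. The median coefficient of variation in glk1 glk2 was 19.5%, against 8.66% over the range. In WT it was 13.2%, against 5.85% over the range. The genes were not matched for level, and the choice required low mutant levels. In glk1 glk2 library 1 the median level was 5.36 TPM for the 39 and 20.89 TPM over the range. In WT-1 the medians were nearer, at 14.85 TPM for the 39 and 16.34 TPM over the range. The part of level in the spread was not tested. Mutant library 4 was the lowest of its group for 16 of the 39 (41.0%), against 25.1% over the range. WT-3 was the highest of its group for 21 (53.8%), against 33.1% over the range. WT-1, the column with restored order, was the lowest of its group for 21 (53.8%), against 38.2% over the range. The summed level of the 39 was nonetheless close within groups, with 262, 252, 261 and 232 TPM in glk1 glk2, against 729.9, 738 and 769 TPM in WT. Transcripts of the 39 had a median length of 1526 bases and a median of 3 exons, and 7 (17.9%) had a single exon. Over 12653 tested protein-coding genes of the range these were 1770 bases, 5 exons and 12.2%. These comparisons were not tested.

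**Figure D5:**
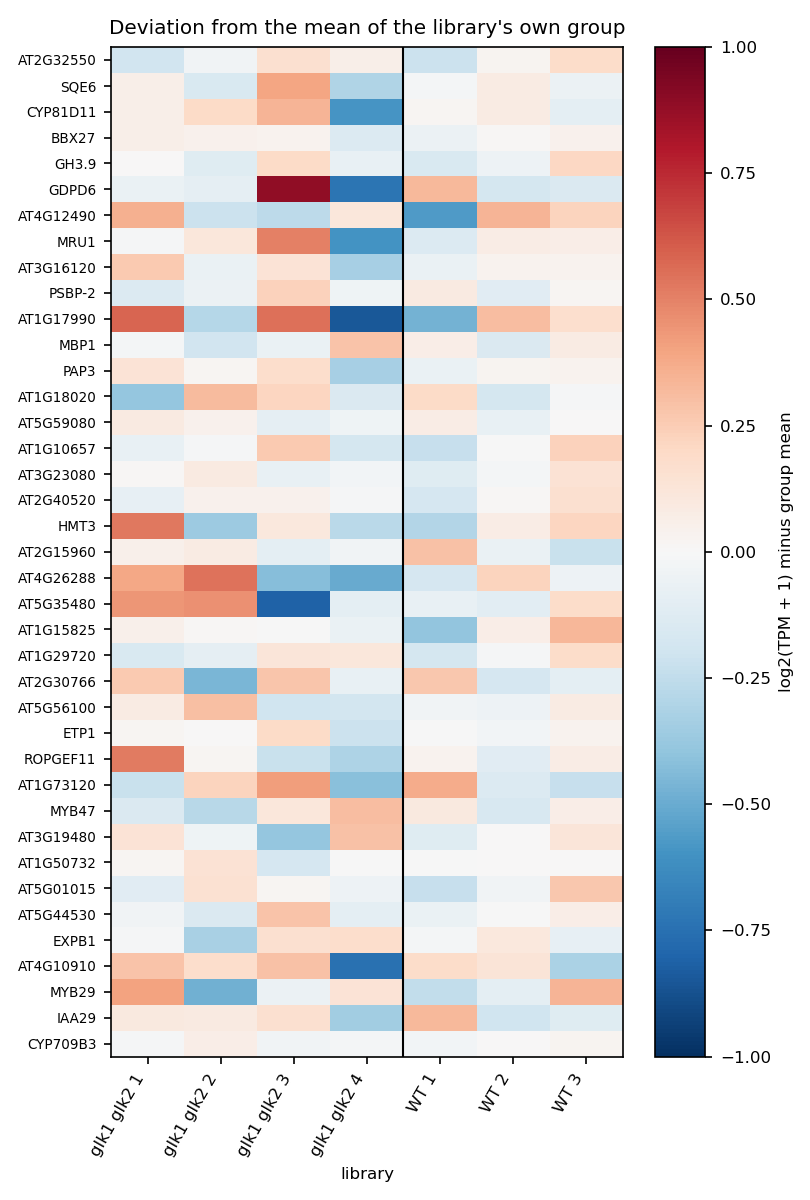
Deviation of log2(TPM + 1) of each of the 39 genes (rows) from the mean of the library's own group, for the 4 glk1 glk2 libraries (left) and the 3 WT libraries (right). Blue cells mark values below the group mean, and they are most frequent in glk1 glk2 library 4, which was lowest for 16 of the 39.

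The limits of the choice fall inside a continuous range. Just outside the limit of 0.5, AT5G42460 was at 50.3% of WT and AT2G18560 at 50.5%, next to IAA29 at 49.7% and CYP709B3 at 49.96% inside it. Below 5 TPM in WT, AT3G10185 had means of 2.00 TPM in glk1 glk2 and 4.89 TPM in WT, and COR15B 2.04 TPM in glk1 glk2 and 4.50 TPM in WT. Inside it, AT4G26288 had a WT mean of 5.22 TPM and AT2G32550 one of 5.38 TPM. Above 100 TPM, AT2G05540 had 48.1 TPM in glk1 glk2 and 102 TPM in WT, and HEME1, an enzyme of porphyrin synthesis, 42.01 TPM in glk1 glk2 and 107 TPM in WT. The defensin gene PDF1.3 met both other limits with overlapping groups, with 7.24 to 9.84 TPM in glk1 glk2 and 5.82 to 49.0 TPM in WT.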

How the data were processed

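Total RNA of whole Arabidopsis thaliana seedlings had been sequenced on DNA nanoballs, per the labels' protocols. The authors deposited 1 table of TPM values with 27655 genes and 7 libraries, and all columns have the same sum, so no read depth is kept and no counting interval is given. TopHat2, Cufflinks and TAIR10 are named per the submitters' processing notes; versions, annotation, strand setting and treatment of shared reads are not given in the sources used. In 5606 rows the identifiers are out of alphabetical order. There the correlation of WT-1 across genes with the mean of all other libraries was 0.055 as deposited and 0.995 in alphabetical order, as in the other rows (0.995), and WT-1 was read in that order; 8 of the 39 genes lie there. RefSeq (TAIR10.1) gave symbols, products, positions and sequences, and 27433 identifiers matched its locus tags.

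Genes with at least 1 TPM in at least 3 libraries (19127) were compared as log2(TPM + 1) with limma 3.58.1 in R 4.3.3 (two-sided, with a mean-variance trend; called at a Benjamini-Hochberg adjusted p under 0.05), in TPM and after TMM factors computed on the table (30% trim of log ratios, 5% of mean levels). This scale understates the change of low genes. Other steps used Python 3.11.15. Stretches of 50 bases were compared exactly, on both strands, with all RefSeq transcripts. The members, roles, lists and tests were chosen with earlier results of these data known, and families by symbol after the members were known. Values per library are given for the 12 genes lowest relative to WT, the 8 with the highest WT mean, up to 4 per role and those nearest the limits. Outside the 39, genes with the largest called change of a list, up to 4, are named; relatives and neighbours were named after their values were seen. Alternatives changed scaling, pseudocount, filter, variance model, row order, limits and libraries.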

Additional observations from a re-analysis of the deposited data

Results flagged for a closer look

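In the 4 glk1 glk2 libraries, 3 of the 39 genes had 1 library far from the others by Dixon's test, which flags about 1 in 20 groups by chance. In each it was library 4, and it was the lowest. BBX27 had 6.35 TPM there, against 7.26 to 7.40 TPM in the other 3. AT4G10910 had 1.72 TPM there, against 4.16 to 4.61 TPM in the other 3. IAA29 had 3.12 TPM there, against 4.58 to 4.87 TPM in the other 3. WT, with 3 libraries, was not tested.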

How the results depend on the processing

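The number of genes that meet the rule, 39, was 107 after TMM scaling, 25 with a ratio of at most 0.4, 25 with a WT mean of at least 10 TPM, and 59 with the genes left out by name kept in, the last chosen after seeing the data. All 39 were among the 107, and 34 were among the 55 found with WT-1 as deposited. Without 1 library each it ranged from 38 to 50. The limma calls, 489 lower and 12046 higher in TPM, were 948 lower and 613 higher after TMM scaling and 922 lower and 762 higher after quantile normalization. Without 1 library each they ranged from 375 to 575 lower and from 9943 to 11952 higher. The labels do not say whether replicate numbers pair the samples. Deviations of same-numbered libraries correlated at 0.050, 0.174 and 0.089, each best with its own number. That is a hint from the data and not the design. With the replicate block, without the fourth mutant library, there were 461 lower and 10999 higher calls.

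The counts of other genes lower in glk1 glk2, called in both scalings in the text, were with TMM alone and quantile normalization 41 and 41 for transcription regulators (20), 18 and 17 for cytochrome P450 (11), 14 and 14 for auxin and SAUR (5), 29 and 29 for lipid metabolism (14), 6 and 7 for cell wall (2), 44 and 33 for light-harvesting and photosystem products (44) and 112 and 111 for products of no known function (62). PSBP-1 was not called after quantile normalization. Marker genes called were 1 and 2.

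Of 612 log2 differences of the 39 genes under an alternative, 611 were negative and 68 moved by more than 1 SD, 28 of them after TMM scaling. That of AT3G23080 was 0.219 with WT-1 as deposited, where AT3G19480, CYP81D11 and AT5G59080 were not called either. Without a filter AT4G10910 was not called. With a mean of at least 5 TPM, 30 of the 39 were tested, and without any 1 WT library 38. Depth limits these values to an unknown degree.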
